A study of Mus musculus with 28 samples.

Results

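The genes described here are 39 enzymes, carriers and regulators of fatty acid oxidation together with target genes of the nuclear receptor PPAR-alpha, taken by gene symbol from a kidney RNA-seq table of 14845 genes. A gene was kept when its value reached 1 in at least 5 of the 28 libraries. All 39 members met this rule, among 13495 genes that did. Of the members, 38 reached 1 in every library, and Fabp1 passed only through the db/db Unx groups.

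Fatty acids are the main fuel of the proximal tubule, the reabsorbing segment that makes up most of the kidney cortex. They are taken up, activated to acyl-CoA, carried into mitochondria as carnitine esters and shortened by β-oxidation, while peroxisomes shorten very long and branched chains and pass the products on. PPAR-alpha is a fatty acid sensor that pairs with a retinoid X receptor on direct repeats of a short core site in DNA and raises the transcription of many of these genes in liver and kidney.

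Kidneys of male mice were profiled in 4 groups. Uninephrectomized (Unx) db/db mice, which lack the long form of the leptin receptor and are obese and diabetic, gave 12 libraries at 26 weeks of age and 5 at 35 weeks. Intact db/m mice gave 5 libraries at 26 weeks and 6 at 35 weeks. All db/db mice had lost 1 kidney and all db/m mice had both, so genotype and surgery cannot be told apart, and no lean Unx or intact db/db group was analysed here. The labels name no batch, and 1 animal per library was assumed, as no label says how kidneys were pooled or split.

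Values are the deposited, scaled signal per gene. Read depth, estimated from the size of the smallest step between low values, was 21.8 M to 30.8 M reads per library (M, 1e6). Differences are db/db Unx minus db/m on the log2(value + 1) scale with the standard error from limma, and a gene is called at a Benjamini-Hochberg adjusted p under 0.05 over all 13495 genes. The db/db Unx 35-week libraries numbered 03, 05 and 06 stood apart from the others on the second principal component of all genes (-42.8, -26.7 and -20.1, against -9.21 to 17.4 in the other 25 libraries), and results that rest on them are also given without them. Lepr, the gene mutated in db/db mice, had a log2 difference of 0.20 ± 0.21 at 26 weeks (adjusted p 0.493) and -0.91 ± 0.24 at 35 weeks (adjusted p 0.00309). Its values were low, 0.0364 to 1.27 in db/db Unx and 0.799 to 4.70 in db/m at 35 weeks. For 35 minus 26 weeks it rose within db/m (1.02 ± 0.24, adjusted p 0.00654) and was not called within db/db Unx (-0.10 ± 0.21, adjusted p 0.819). In addition, 1 value for the whole gene cannot show the db splice mutation.

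In db/db Unx kidneys the members moved in both directions, and mostly the same way at both ages. At 26 weeks 13 of the 39 members were called higher and 8 lower, beside 17.2% of all tested genes called higher and 17.7% called lower. At 35 weeks 16 were called higher and 9 lower, beside backgrounds of 15.9% and 16.4%. Of these, 11 were higher at both ages and 7 lower at both ages, none was called in opposite directions, 3 were called at 26 weeks only, 7 at 35 weeks only and 11 at neither. Fabp1 is among those higher at both ages. It passed the filter only through db/db Unx, so its place in these counts adds nothing. The log2 differences ran from -0.87 to 1.41 at 26 weeks with a median of 0.10, against 0.02 over all genes, and from -0.88 to 1.78 at 35 weeks with a median of 0.10, against 0.01 over all genes.

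The split between higher and lower depended on the scaling. After quantile normalization 20 members were called higher and 5 lower at 26 weeks, and 22 higher and 6 lower at 35 weeks, while all genes stayed near an even split (2319 higher and 2250 lower at 26 weeks, 2159 and 2208 at 35 weeks). The deposited values of a library summed to 917330 to 956393 in db/db Unx and 976214 to 1018930 in db/m at 26 weeks; the part of these totals in the split was not tested. Under this scaling Slc27a2, Acadm, Acads, Etfa and Crot were the members still called lower at 26 weeks, and these with Ehhadh at 35 weeks. Without the 3 libraries that stood apart, which leaves 2 db/db Unx libraries at 35 weeks, 11 members were called higher and 6 lower at 35 weeks, when 1132 and 1275 of all genes were.

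**Figure D1:**
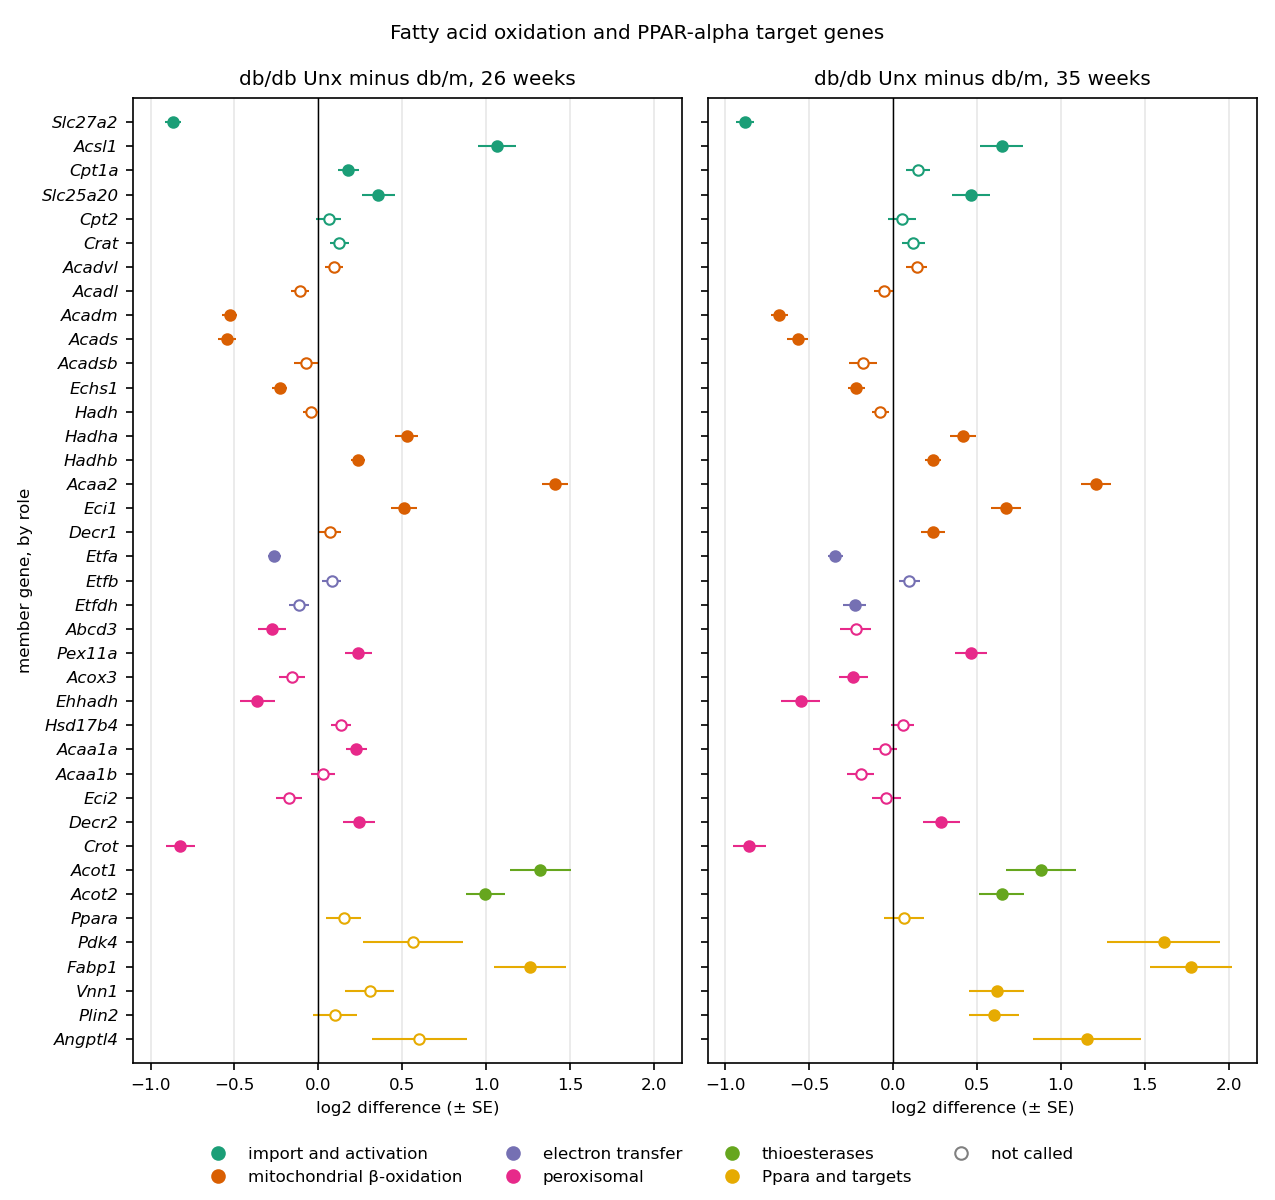
Log2 differences, db/db Unx minus db/m, of the 39 members at 26 weeks (left) and 35 weeks (right) with standard errors, coloured by role; filled points are called and open points are not. Acaa2, Acsl1, Acot1, Acot2 and Fabp1 lie to the right at both ages, Slc27a2, Crot, Acadm and Acads to the left, and Pdk4 and Angptl4 are filled at 35 weeks only.

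Proximal tubule markers were mostly called lower. The summed value of 20 proximal tubule markers, all of them in the table and none at 0 in every library, was 16595 to 19790 in db/db Unx libraries and 23529 to 25649 in db/m libraries at 26 weeks, and 14754 to 17289 in db/db Unx against 22438 to 25277 in db/m at 35 weeks. Of these markers 2 were called higher and 11 lower at 26 weeks, and 1 higher and 11 lower at 35 weeks. Beside these counts and those of the macrophage markers below, 17.2% of all genes were called higher and 17.7% lower at 26 weeks. At 35 weeks the shares of all genes were 15.9% and 16.4%. After quantile normalization the counts of proximal tubule markers were 6 and 7, and 3 and 9. Of 10 macrophage markers, none was called higher and 2 were called lower at 26 weeks, and 5 were called higher at 35 weeks, where their sum was 147 to 574 in db/db Unx and 133 to 219.8 in db/m. Without the 3 libraries that stood apart no macrophage marker was called higher at 35 weeks. The part of these markers in the members' differences was not tested, and in whole kidney fewer cells of a type and less RNA per cell cannot be told apart.

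The enzymes that make acyl-CoA changed in opposite directions. Slc27a2, a fatty acid transporter and very long-chain acyl-CoA synthetase, had the highest mean value per kb of exon among the members in all 4 groups, and it fell. Its values were 2896 to 3440.4 (median 3197) in the 12 db/db Unx libraries and 5290.2 to 6769 in the 5 db/m libraries at 26 weeks, and 3009.7 to 3494 in db/db Unx against 5379 to 6258 in db/m at 35 weeks. No db/db Unx library reached a db/m library at either age, and the log2 difference was -0.87 ± 0.05 at 26 weeks (adjusted p 3.44e-17) and -0.88 ± 0.05 at 35 weeks (adjusted p 9.98e-16). After quantile normalization it was -0.54 and -0.46.

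Acsl1 (ENSMUSG00000018796, GRCm38 chromosome 8, 46471037 to 46536051), the main long-chain acyl-CoA synthetase of oxidative tissues, rose. At 26 weeks its values ran from 155 through a median of 215 to 264 in db/db Unx, against 94.9, 92.7, 126, 94.9 and 93.5 in db/m. At 35 weeks they were 179, 260.5, 229, 272 and 239 in db/db Unx and 179, 146, 182, 129.7, 135 and 128 in db/m. All db/db Unx libraries lay above all db/m libraries at 26 weeks, and at 35 weeks the lowest db/db Unx library lay among the db/m values. The log2 difference was 1.06 ± 0.11 at 26 weeks (adjusted p 1.1e-08) and 0.65 ± 0.13 at 35 weeks (adjusted p 0.000219). Between the ages Acsl1 rose within db/m, by a log2 difference of 0.57 ± 0.13 for 35 minus 26 weeks (adjusted p 0.00568), and was not called within db/db Unx (0.15 ± 0.11, adjusted p 0.42).

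The carnitine shuttle moved less. Slc25a20, the translocase that carries acylcarnitines across the inner mitochondrial membrane, was higher by 0.36 ± 0.10 on the log2 scale at 26 weeks (adjusted p 0.00496) and by 0.46 ± 0.11 at 35 weeks (adjusted p 0.00172). Cpt1a, which makes long-chain acylcarnitines at the outer membrane and sets the pace of entry, was called at 26 weeks (0.18 ± 0.06, adjusted p 0.0234) and not at 35 weeks (0.15 ± 0.07, adjusted p 0.105). Its call at 26 weeks was lost without db/m replicate 2 (adjusted p 0.0607) or replicate 4 (adjusted p 0.172). Cpt2, which releases acyl-CoA inside the mitochondrion, and Crat, the carnitine acetyltransferase, were called at neither age.

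Of the 12 mitochondrial oxidation genes 4 were called higher and 3 lower at 26 weeks (17.2% and 17.7% of all genes), and 5 higher and 3 lower at 35 weeks (15.9% and 16.4% of all genes). After quantile normalization 7 were higher and 2 lower at both ages. Acadm and Acads, the medium-chain and short-chain acyl-CoA dehydrogenases, fell. Acadm was 663 to 809 in db/db Unx and 1046 to 1149 in db/m at 26 weeks, and 678 to 767 in db/db Unx against 1068 to 1234 in db/m at 35 weeks, with log2 differences of -0.53 ± 0.04 (adjusted p 2.9e-12) and -0.68 ± 0.05 (adjusted p 2.07e-13). Acads was 121 to 147 in db/db Unx and 178 to 209.9 in db/m at 26 weeks, and 130.0 to 149 in db/db Unx against 176 to 228 in db/m at 35 weeks, with log2 differences of -0.54 ± 0.06 and -0.57 ± 0.06. For both genes the db/db Unx and db/m ranges did not overlap at either age. The very long-chain and long-chain dehydrogenases Acadvl and Acadl were called at neither age (0.09 ± 0.05 and -0.11 ± 0.05 at 26 weeks, 0.14 ± 0.06 and -0.05 ± 0.06 at 35 weeks). After quantile normalization Acadvl was called higher at both ages, with log2 differences of 0.28 and 0.30. Acadsb, the short branched-chain dehydrogenase of isoleucine breakdown, was not called either.

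Among the mitochondrial genes that rose were enzymes of the later steps. Hadha and Hadhb, the α and β subunits of the trifunctional protein that performs the last 3 reactions on long chains, were both higher, Hadha by 0.53 ± 0.07 and 0.42 ± 0.08 and Hadhb by 0.23 ± 0.04 and 0.24 ± 0.05 on the log2 scale at 26 and 35 weeks. Eci1, an isomerase needed for unsaturated fatty acids, was higher by 0.51 ± 0.08 and 0.67 ± 0.09. Decr1, the dienoyl-CoA reductase of the same side path, was called on the deposited values at 35 weeks (0.24 ± 0.07, adjusted p 0.0106) and not at 26 weeks (0.07 ± 0.06, adjusted p 0.435). More mitochondrial oxidation genes were called higher at 26 weeks after quantile normalization, so a call of Decr1 at 35 weeks only may depend on the scaling. Echs1, the short-chain enoyl-CoA hydratase, was lower with log2 differences of -0.23 ± 0.04 and -0.22 ± 0.05, a call lost at both ages after quantile normalization (-0.07 and -0.08). At 35 weeks its db/db Unx range overlapped that of db/m, 309.8 to 385.7 against 376.6 to 416.1. Without the 3 libraries that stood apart, the db/db Unx values left at 35 weeks were 319.8 and 385.7. The short-chain hydroxyacyl-CoA dehydrogenase Hadh was not called (-0.05 ± 0.04 and -0.08 ± 0.05), and after quantile normalization it was called higher (0.15 and 0.11).

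Acaa2 (ENSMUSG00000036880, GRCm38 chromosome 18, 74779197 to 74806208), the mitochondrial thiolase that splits off acetyl-CoA, showed the largest log2 difference among the members at 26 weeks. Its values ran from 721 through a median of 903 to 1125 in db/db Unx at 26 weeks, against 315, 299, 382, 332 and 383 in db/m. At 35 weeks they were 758, 817, 705, 859 and 810.1 in db/db Unx and 375, 329.7, 347, 327, 394 and 279 in db/m. The groups stood far apart at both ages, with the lowest db/db Unx library above the highest db/m library. The log2 difference was 1.41 ± 0.08 at 26 weeks (adjusted p 9.05e-16) and 1.21 ± 0.09 at 35 weeks (adjusted p 9.64e-13). By mean value per kb of exon Acaa2 ranked 3 of 39 in both db/db Unx groups, and 7 and 6 in db/m at 26 and 35 weeks.

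The 3 genes that pass electrons from these dehydrogenases to the respiratory chain were lower or not called. Etfa, a subunit of the electron transfer flavoprotein, was 428 to 475 in db/db Unx and 523 to 577 in db/m at 26 weeks, and 407 to 459.7 in db/db Unx against 502 to 577 in db/m at 35 weeks, so the groups did not overlap. Its log2 difference was -0.26 ± 0.04 at 26 weeks (adjusted p 1.16e-06) and -0.34 ± 0.04 at 35 weeks (adjusted p 9.19e-08). Etfdh, which hands the electrons to ubiquinone, was called lower at 35 weeks (-0.23 ± 0.07, adjusted p 0.00713) and not at 26 weeks (-0.12 ± 0.06). Its 35-week difference was -0.21 without the 3 libraries that stood apart (adjusted p 0.0697) and -0.13 after quantile normalization, and it was called under neither. Etfb, the partner subunit of Etfa, was not called in db/db Unx against db/m at either age (0.08 ± 0.06 and 0.10 ± 0.06). It shares 53.0% of its exon bases with a gene on the same strand, Gm45233, and was called higher at both ages after quantile normalization (0.28 and 0.29).

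**Figure D2:**
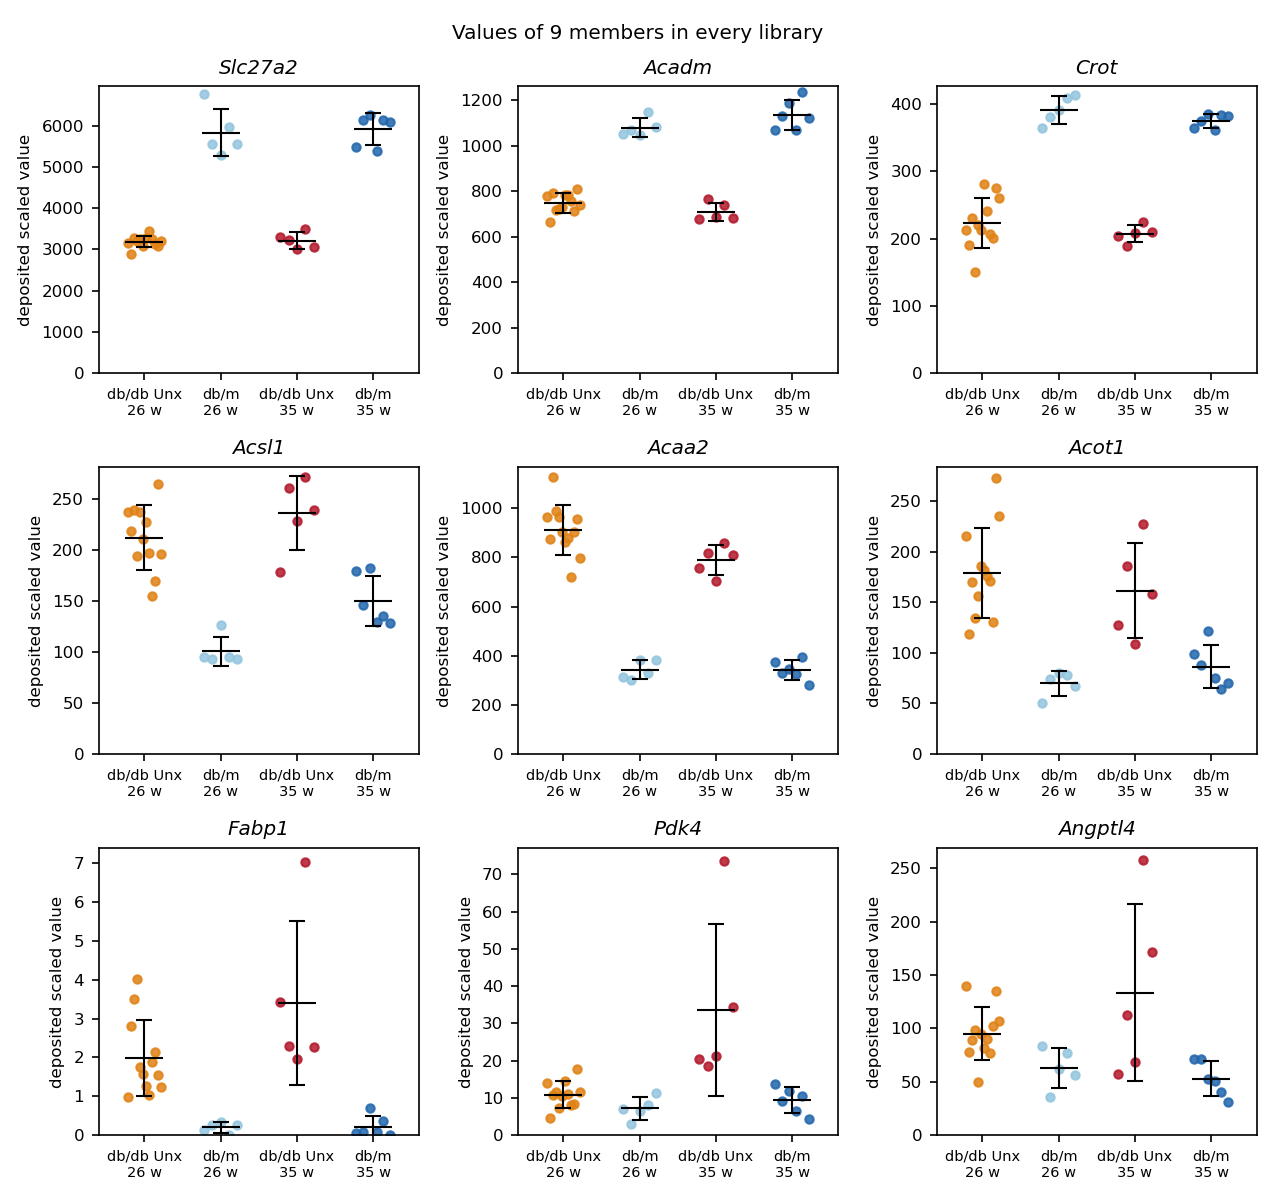
Deposited scaled value of 9 members in every library, 1 point per library, with the group mean and SD as bars; each panel has db/db Unx left of db/m at 26 weeks and again at 35 weeks, on a linear axis from 0. Slc27a2, Acadm and Crot are lower in every db/db Unx library than in every db/m library of the same age. Acaa2 and Fabp1 are higher in every one, though Fabp1 passed the filter only through db/db Unx. The db/db Unx replicate 05 of 35 weeks is the highest point for Fabp1 (7.04), Pdk4 (73.6) and Angptl4 (258).

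Of the 10 peroxisomal members 3 were called higher and 3 lower at 26 weeks, beside 17.2% and 17.7% of all genes. At 35 weeks 2 were called higher and 3 lower, beside 15.9% and 16.4% of all genes. After quantile normalization 5 were higher and 1 lower at 26 weeks and 3 higher and 2 lower at 35 weeks, and without the 3 libraries that stood apart 1 was higher and 2 lower at 35 weeks. Crot, which turns chains shortened in peroxisomes into carnitine esters for export, fell: it was 150.4 to 281 (median 217) in db/db Unx and 364 to 414 in db/m at 26 weeks, and 189 to 225 in db/db Unx against 362 to 386 in db/m at 35 weeks. No values were shared between the groups at either age, and the log2 difference was -0.82 ± 0.09 (adjusted p 3.64e-09) and -0.86 ± 0.10 (adjusted p 2.75e-08). Ehhadh, the L-bifunctional enzyme and in rodent liver a strong PPAR-alpha target, was lower by a log2 difference of -0.36 ± 0.10 at 26 weeks (adjusted p 0.00653) and -0.55 ± 0.12 at 35 weeks (adjusted p 0.000544), with overlapping groups; after quantile normalization it was called at 35 weeks only (-0.39) and not at 26 weeks (-0.20). Abcd3, an importer of acyl-CoA in the peroxisomal membrane, was lower at 26 weeks (-0.28 ± 0.08, adjusted p 0.00776) and not called at 35 weeks (-0.22 ± 0.09, adjusted p 0.0672) or, at either age, after quantile normalization (-0.14 and -0.11).

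Pex11a, which takes part in peroxisome division, was higher by 0.24 ± 0.08 at 26 weeks (adjusted p 0.0222) and by 0.47 ± 0.09 at 35 weeks (adjusted p 0.000153), where no db/db Unx library overlapped a db/m library. The call at 26 weeks was lost without db/m replicate 1, 2 or 3 (adjusted p 0.0585 to 0.0848). Decr2, the peroxisomal dienoyl-CoA reductase, was called higher by a narrow margin at both ages (0.24 ± 0.10, adjusted p 0.0474, and 0.29 ± 0.11, adjusted p 0.0406). Leaving out any of 20 single libraries, each of the 5 db/m libraries of 26 weeks among them, ended its call at 26 weeks (adjusted p up to 0.0985), and any of 5 (db/m replicates 1, 4 and 6 and db/db Unx replicates 05 and 06 of 35 weeks) ended it at 35 weeks (adjusted p up to 0.143). Acox3, an oxidase of branched chains, was called lower at 35 weeks (-0.24 ± 0.08, adjusted p 0.0302) and not at 26 weeks (-0.16 ± 0.07). That call was lost after quantile normalization (-0.12) and without db/m replicate 5 or db/db Unx replicate 01, 03 or 06 of 35 weeks (adjusted p 0.0646 to 0.112). Hsd17b4, the D-bifunctional enzyme, and the isomerase Eci2 were called at neither age on the deposited values. The larger count of peroxisomal members higher after quantile normalization takes in members not called higher on the deposited values.

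The thiolases Acaa1a and Acaa1b were the peroxisomal members called with age. Acaa1a was 255 to 296 in db/db Unx at 35 weeks and 318 to 419.8 at 26 weeks, a log2 difference of -0.41 ± 0.06 for 35 minus 26 weeks (adjusted p 6.95e-05), and Acaa1b differed by -0.40 ± 0.07 (adjusted p 0.00057). Neither gene's db/db Unx ranges overlapped between the ages, beside 1.34% of all genes. Those of Acaa1b all but touched, with 492.6 the highest at 35 weeks and 492.8 the lowest at 26 weeks. Within db/m neither gene was called (-0.14 ± 0.07 and -0.18 ± 0.08). Without the 3 libraries that stood apart neither was called in db/db Unx, with log2 differences of -0.32 (adjusted p 0.223) for Acaa1a and -0.25 (adjusted p 0.501) for Acaa1b. Against db/m, on the deposited values, Acaa1a was called higher at 26 weeks (0.23 ± 0.06, adjusted p 0.00419) and not at 35 weeks (-0.05 ± 0.07), and Acaa1b was called at neither age. These genes are close copies, with 12.4% of the 50-base windows of Acaa1a and 30.5% of those of Acaa1b present in the other, so reads may have been divided between them.

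Mitochondrial and peroxisomal members can be compared as wholes. The 19 mitochondrial members here include the carnitine shuttle, electron transfer and Acot2. Of them 7 were called higher and 4 lower at 26 weeks (36.8% and 21.1%, beside 17.2% and 17.7% of all genes). At 35 weeks 7 were called higher and 5 lower (36.8% and 26.3%, beside 15.9% and 16.4% of all genes). After quantile normalization 11 were higher and 3 lower at both ages. The median log2 difference was 0.07 at 26 weeks and 0.10 at 35 weeks for mitochondrial members, and -0.06 and -0.12 for peroxisomal members. Over all genes it was 0.02 and 0.01. After quantile normalization the medians were 0.19 and 0.27 for mitochondrial and 0.092 and -0.01 for peroxisomal members, so the sign of the peroxisomal median at 26 weeks turned with the scaling. As a description, the mean centred log2 value of the mitochondrial members ran from -0.04 to 0.19 in db/db Unx libraries and from -0.11 to -0.04 in db/m libraries at 26 weeks, while that of the peroxisomal members ran from -0.17 to 0.20 in db/db Unx and from 0.02 to 0.14 in db/m. At 35 weeks the groups overlapped on both measures, with -0.07 to 0.15 in db/db Unx and -0.22 to -0.0026 in db/m for mitochondrial members, and -0.24 to 0.07 in db/db Unx and -0.12 to 0.17 in db/m for peroxisomal members.

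**Figure D3:**
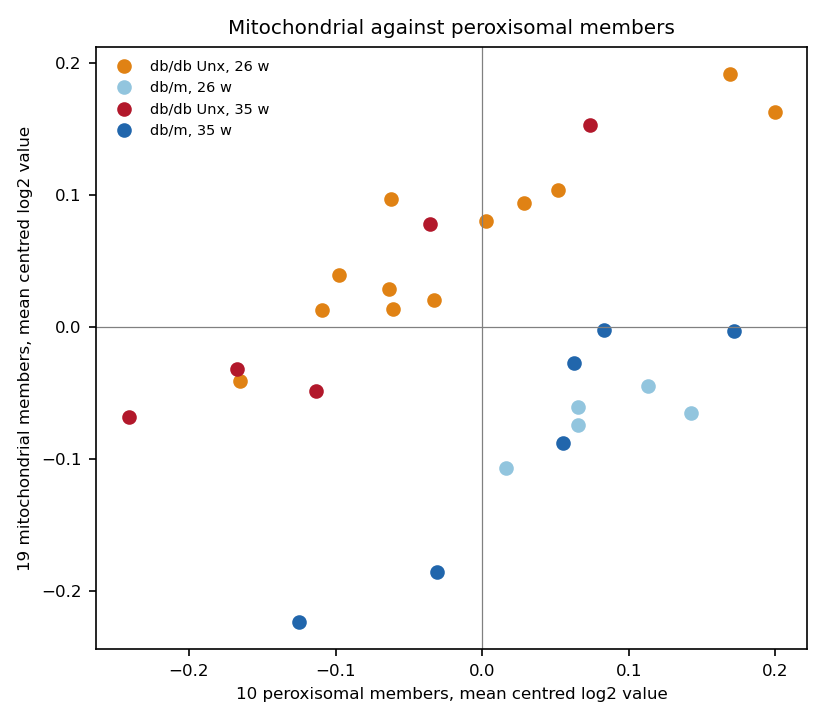
Each point is a library: mean centred log2 value of the 10 peroxisomal members (horizontal axis) and of the 19 mitochondrial members (vertical axis), by group. At 26 weeks the db/db Unx points sit above the db/m points on the vertical axis, 11 of the 12 of them above 0, and spread from -0.17 to 0.20 along the horizontal axis, which takes in the whole db/m range of 0.02 to 0.14; at 35 weeks the db/db Unx and db/m points overlap on both axes.

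Acyl-CoA thioesterases, which release free fatty acid and CoA and are PPAR-alpha targets in rodents, rose. Acot1 (ENSMUSG00000072949, GRCm38 chromosome 12, 84009490 to 84018371), the cytosolic form, ran from 118 through a median of 174 to 273 in db/db Unx at 26 weeks, against 50, 74.3, 79.9, 78.2 and 67 in db/m. At 35 weeks it was 128, 186, 109, 227 and 158 in db/db Unx and 99.1, 87.8, 121, 75.5, 64.1 and 70.6 in db/m. The groups were apart at 26 weeks and met at 35 weeks, where the lowest db/db Unx library lay under the highest db/m library. The log2 difference was 1.32 ± 0.18 at 26 weeks (adjusted p 2.37e-06) and 0.88 ± 0.21 at 35 weeks (adjusted p 0.00183). Acot2, the mitochondrial form, was higher by 1.00 ± 0.12 at 26 weeks (adjusted p 1.74e-08) and 0.65 ± 0.13 at 35 weeks (adjusted p 0.000233). Of the 50-base windows of Acot1 13.6% occur in Acot2 and 24.5% of those of Acot2 in Acot1, so the values of the pair are not fully separate.

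Ppara itself (ENSMUSG00000022383, GRCm38 chromosome 15, 85734983 to 85802819) was not called. It ran from 48.1 through a median of 60.8 to 78.2 in db/db Unx at 26 weeks, against 67, 46.6, 53.4, 44.7 and 68.8 in db/m. At 35 weeks it was 67.9, 56.9, 68.9, 84.6 and 77.9 in db/db Unx and 59.7, 83.6, 66.7, 65, 67.4 and 64.2 in db/m. The groups overlapped over most of their range at both ages, with log2 differences of 0.15 ± 0.10 (adjusted p 0.28) and 0.07 ± 0.12 (adjusted p 0.724).

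Fabp1 (ENSMUSG00000054422, GRCm38 chromosome 6, 71199827 to 71205023), the liver fatty acid-binding protein and a classic PPAR-alpha target, was scarce in these mouse kidneys and rose in db/db Unx. At 26 weeks it ran from 0.968 through a median of 1.66 to 4.02 in db/db Unx, against 0.132, 0.26, 0.346, 0 and 0.247 in db/m. At 35 weeks it was 3.42, 2.3, 1.96, 7.04 and 2.26 in db/db Unx and 0.0447, 0.0887, 0.705, 0.0751, 0.372 and 0 in db/m. Every db/db Unx library exceeded every db/m library of its age, and the estimated reads behind these values were 25 to 105 in db/db Unx against 0 to 10 in db/m at 26 weeks and 58 to 239 in db/db Unx against 0 to 17 in db/m at 35 weeks. The log2 difference was 1.26 ± 0.21 at 26 weeks (adjusted p 1.13e-05) and 1.78 ± 0.24 at 35 weeks (adjusted p 2.95e-07). At values this low the log2(value + 1) scale understates the difference, and the size moved with the added constant, to 1.76 and 2.39 with 0.5 and to 0.41 and 0.66 with 5, called each time. Since the gene entered the table of tested genes only through db/db Unx, it had to differ. Its adjusted p-values and the gap between its groups are therefore no separate support.

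The promoter of Fabp1 is shown because it was the only member promoter with a direct repeat of the PPAR core site spaced by 1 base. The letters AGGNCANAGGNCA, searched on both strands from 250 bases before to 50 after the RefSeq start, matched 1 of the 33 members with a promoter sequence, beside 0.381% of 32851 mouse promoters. The stricter AGGTCANAGGTCA, which it includes, matched no member and 0.0396% of promoters. The match, AGGCCATAGGTCA on the opposite strand, lies 67 to 55 bases before the RefSeq start and is in capitals here as it reads on the gene's strand (RefSeq promoter table, GRCm38.p6, chr6:71199629-71199826, plus strand, ending before the annotated start of the gene).
Fabp1: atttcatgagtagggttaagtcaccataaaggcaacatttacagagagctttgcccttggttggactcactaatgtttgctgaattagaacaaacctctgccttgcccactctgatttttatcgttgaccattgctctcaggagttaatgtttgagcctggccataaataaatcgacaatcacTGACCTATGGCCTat
The core site AGGTCA alone, searched on both strands and overlapping the repeats, was in the promoters of 7 members (Acadm, Acadvl, Cpt1a, Echs1, Fabp1, Plin2 and Slc27a2) and in 16.3% of all promoters. Among these 7 of 33 members, on the deposited values, Fabp1 rose and Slc27a2, Acadm and Echs1 fell at both ages. The calls of Echs1 were lost after quantile normalization, and Fabp1 passed the filter only through db/db Unx. Cpt1a was called higher at 26 weeks only, Plin2 higher at 35 weeks only, and Acadvl at neither age.

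Pdk4, Angptl4, Plin2 and Vnn1 were called higher at 35 weeks and not at 26 weeks. A change of the db/db Unx minus db/m difference between 26 and 35 weeks was called for none of them. Within db/db Unx, Pdk4 alone of them was called higher at 35 than at 26 weeks. Pdk4 (ENSMUSG00000019577, GRCm38 chromosome 6, 5483351 to 5496309), the kinase that shuts off pyruvate dehydrogenase when fat is burned, ran from 4.6 through a median of 11 to 17.7 in db/db Unx at 26 weeks, against 6.9, 2.94, 6.58, 8.09 and 11.3 in db/m. At 35 weeks it was 20.3, 18.5, 21.2, 73.6 and 34.4 in db/db Unx and 13.8, 9.01, 11.9, 6.57, 10.4 and 4.4 in db/m. At 35 weeks all db/db Unx libraries lay above all db/m libraries, with replicates 05 and 06 highest, and at 26 weeks the groups overlapped. The log2 difference was 0.56 ± 0.30 at 26 weeks (adjusted p 0.148) and 1.61 ± 0.34 at 35 weeks (adjusted p 0.000478). Without the 3 libraries that stood apart it was 1.06 at 35 weeks (adjusted p 0.0552).

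Angptl4 (ENSMUSG00000002289, GRCm38 chromosome 17, 33773750 to 33781830), a secreted inhibitor of lipoprotein lipase, ran from 49.9 through a median of 92.6 to 139.9 in db/db Unx at 26 weeks, against 83.5, 35.9, 61.9, 76.8 and 56 in db/m. At 35 weeks it was 56.9, 113, 68.7, 258 and 171 in db/db Unx and 71.4, 71.5, 52.5, 50.8, 40.7 and 30.9 in db/m. Replicates 01 and 03 of db/db Unx lay within the db/m range at 35 weeks and the other 3 above it. The log2 difference was 0.60 ± 0.28 at 26 weeks (adjusted p 0.102) and 1.16 ± 0.32 at 35 weeks (adjusted p 0.00667). Without the 3 libraries that stood apart the 35-week difference was 0.65 (adjusted p 0.248).

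Plin2, the coat protein of lipid droplets, was 143 to 248 in db/db Unx and 103 to 143 in db/m at 35 weeks, with replicates 05 and 06 of db/db Unx again the highest. Its log2 difference was 0.10 ± 0.13 at 26 weeks and 0.60 ± 0.15 at 35 weeks (adjusted p 0.00248), and 0.27 (adjusted p 0.304) without the 3 libraries. Vnn1, a pantetheinase whose product feeds CoA metabolism, differed by 0.30 ± 0.14 at 26 weeks and by 0.62 ± 0.16 at 35 weeks (adjusted p 0.00472), and by 0.33 (adjusted p 0.275) without them. The higher macrophage marker sums given above belong to the same 35-week group, and their part in these 4 genes was not tested.

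**Figure D4:**
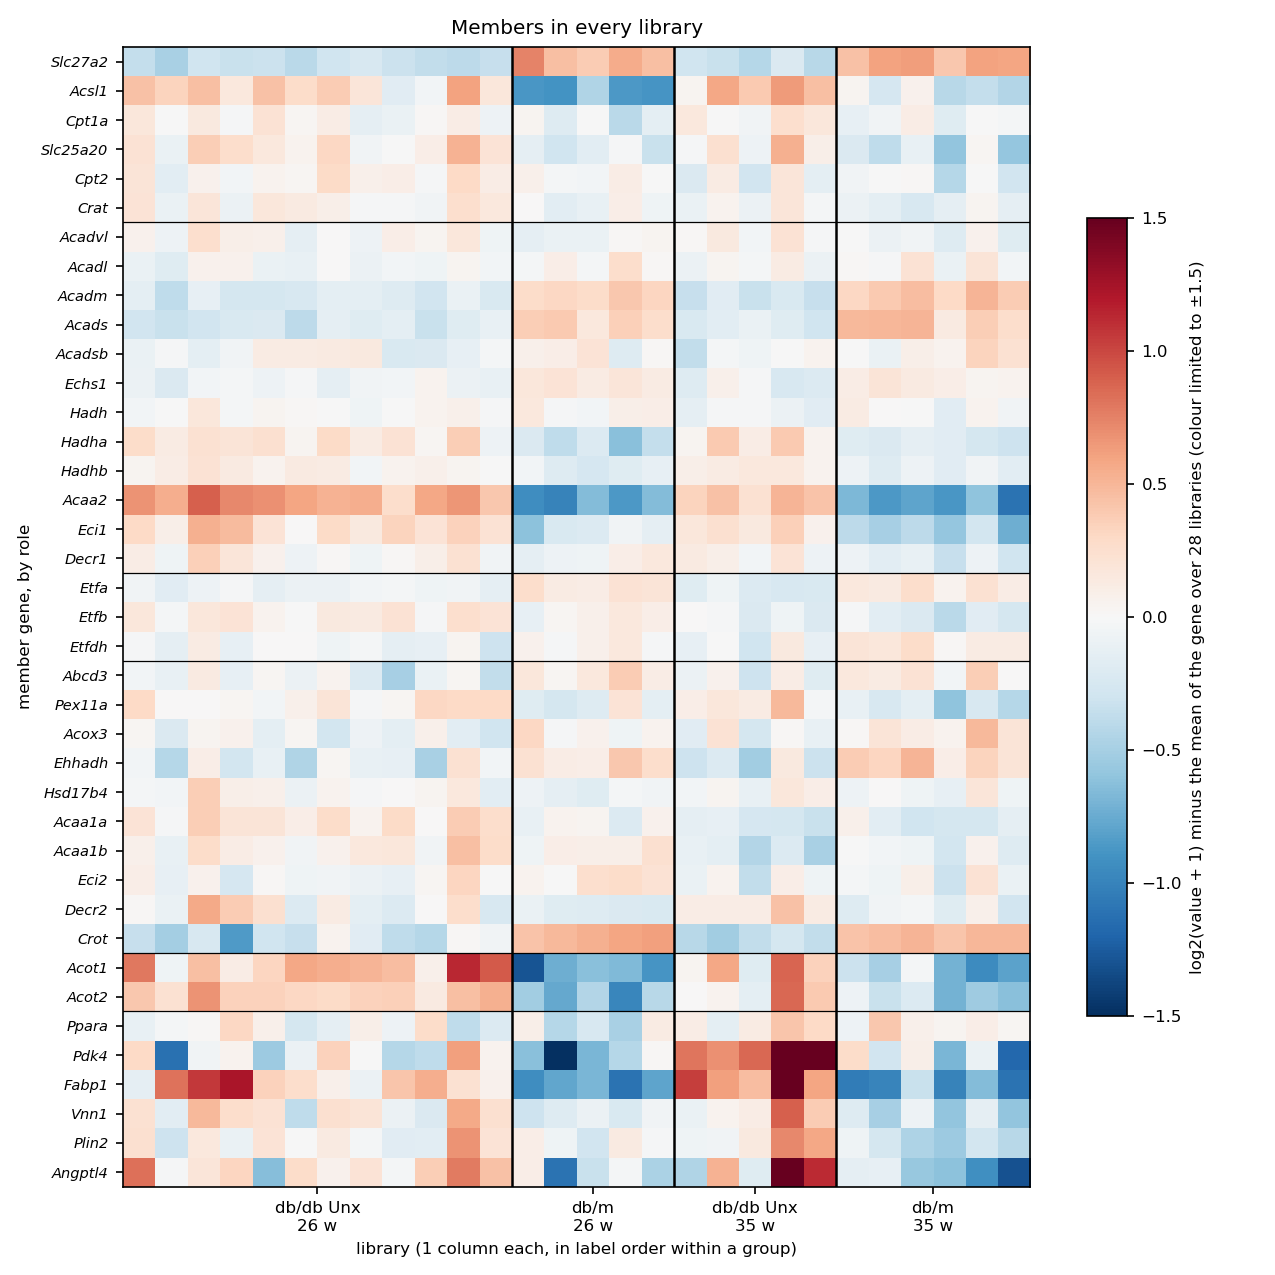
Heatmap of log2(value + 1) minus the gene's mean over the 28 libraries for the 39 members (rows, by role) in every library (columns, db/db Unx left of db/m at 26 and at 35 weeks); red is above and blue below the mean, and colours stop at 1.5. Slc27a2 and Crot change colour between db/db Unx and db/m in nearly every column, and Acaa2 and Acot1 do so the other way. The darkest red cells for Pdk4, Angptl4 and Fabp1 stand in the 35-week db/db Unx block, replicate 05 among them for each gene.

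Few members were called with age, at shares near those of all genes. The shares were 2.56% higher and 7.69% lower in db/db Unx, and 2.56% in each direction in db/m. Comparing 35 with 26 weeks within db/db Unx, Pdk4 was called higher (1.40 ± 0.30, adjusted p 0.00337) and Etfb, Acaa1a and Acaa1b lower, 1 and 3 of 39 beside 5.16% and 6.14% of all genes. None of these 4 was called without the 3 libraries that stood apart, when 1 of all genes was called higher and 7 lower. Within db/m, Acsl1 was called higher and Etfb lower (-0.25 ± 0.06, adjusted p 0.00989), beside 2.73% and 4.68% of all genes. After quantile normalization Etfb was called with age in neither db/db Unx (adjusted p 0.0532) nor db/m (adjusted p 0.101). Age and any batch of mice or libraries that goes with it cannot be told apart. The disease comparison differed between 35 and 26 weeks for none of the 39 members by limma, beside 0.548% of all genes called, and 6 had an unadjusted p under 0.05: Pdk4 and Plin2 toward a larger difference at 35 weeks (1.05 and 0.50 on the log2 scale), and Acsl1, Acaa1a, Acaa1b and Acadm toward a lower one (-0.42, -0.27, -0.22 and -0.15).

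At 26 weeks 7 members were higher and 6 lower in every db/db Unx library than in every db/m library, beside 12.8% of all genes in either direction. At 35 weeks the counts were 8 and 5, beside 18.1%. Hadha, Acaa2, Eci1 and Fabp1 were apart upwards at both ages, and Slc27a2, Acadm, Acads, Etfa and Crot downwards. Fabp1 passed the filter only through db/db Unx, so its place in these counts says nothing further.

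Other genes of the same and adjoining pathways were counted in lists made with earlier results known. Beside the counts of these lists, 17.2% of all genes were called higher and 17.7% lower at 26 weeks, and 15.9% and 16.4% at 35 weeks. Of 20 other PPAR-alpha targets 13 were called higher and 4 lower at 26 weeks, and 12 higher and 3 lower at 35 weeks, with median log2 differences of 0.38 and 0.47, against 0.02 and 0.01 over all genes. Cyp4a14, an ω-hydroxylase of fatty acids, averaged 824 in db/db Unx and 11.2 in db/m at 26 weeks (log2 difference 6.20 ± 0.29), and 1088 in db/db Unx against 9.79 in db/m at 35 weeks (6.72 ± 0.32). Its close paralog Cyp4a10, with which it may share reads, was higher by 1.99 ± 0.20 and 2.16 ± 0.23, and Aldh3a2, a fatty aldehyde dehydrogenase, was lower, with log2 differences of -0.89 ± 0.06 and -1.09 ± 0.07.

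Mitochondrial genes outside the member list were more often called lower. This list also holds enzymes of amino acid breakdown, Ivd and Acat1 below among them, so its counts do not describe fatty acid oxidation alone. Of 21, 4 were called higher and 13 lower at 26 weeks, and 2 higher and 11 lower at 35 weeks, with median log2 differences of -0.24 and -0.21. After quantile normalization 4 were higher and 10 lower, and 4 higher and 11 lower. Acat1, the thiolase of ketone body and isoleucine breakdown, was lower by a log2 difference of -1.24 ± 0.06 and -1.42 ± 0.06, and Ivd, the isovaleryl-CoA dehydrogenase of leucine breakdown, by -1.08 ± 0.05 and -1.28 ± 0.05. Acsf2, a mitochondrial acyl-CoA synthetase, was higher by 2.08 ± 0.19 and 2.62 ± 0.22, and Cpt1b, the muscle form of Cpt1, by 1.02 ± 0.13 and 0.59 ± 0.15.

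Peroxisomal genes outside the member list were split. Of 20, 6 were called higher and 7 lower at 26 weeks, and 5 higher and 8 lower at 35 weeks, while after quantile normalization 9 were higher and 5 lower, and 7 higher and 5 lower. Hacl1, which shortens phytanic acid by a carbon, was higher by 2.21 ± 0.12 and 1.96 ± 0.14 on the log2 scale. Amacr, the racemase that readies branched chains for oxidation, was lower, with log2 differences of -2.01 ± 0.11 and -2.17 ± 0.12, as were Pecr, a trans-enoyl-CoA reductase (-1.27 ± 0.08 and -1.48 ± 0.10), and Mpv17l (-1.97 ± 0.10 and -1.60 ± 0.11).

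Genes of uptake, binding and activation outside the member list moved in both directions. Of 13, 6 were called higher and 4 lower at 26 weeks, and 7 higher and 3 lower at 35 weeks. Cd36, a fatty acid uptake receptor, averaged 94.0 in db/db Unx and 487 in db/m at 26 weeks, and 53.8 in db/db Unx against 418 in db/m at 35 weeks, with log2 differences of -2.44 ± 0.24 and -2.98 ± 0.27. Lpl, the lipase that Angptl4 inhibits, had log2 differences of -2.04 ± 0.10 and -1.91 ± 0.11. Bbox1, the last enzyme of carnitine synthesis, was higher by 1.72 ± 0.22 and 1.62 ± 0.25. Of 29 regulators of these pathways, 5 were called higher and 4 lower at 26 weeks (17.2% and 13.8%, beside 17.2% and 17.7% of all genes) and 4 in each direction at 35 weeks (13.8% each, beside 15.9% and 16.4%). After quantile normalization 5 were higher and 2 lower at 26 weeks and 4 higher and 5 lower at 35 weeks. No called regulator reached a log2 difference of 1 in size.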

How the data were processed

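The authors deposited 1 table of scaled signal values for 14845 genes and 28 kidney RNA-seq libraries. DRAGEN and the GRCm38 (mm10) build are named in the submitters' processing notes; for the version, annotation, scaling and gene filter, nothing is stated (not given in the sources used here). Per the labels' protocols, RNA was extracted with TRIzol and RNeasy and libraries were made with Nextera XT, which does not mark strand. Low values are near whole multiples of a step per library (88.6% to 91.9% of values under 20 steps lay within 0.1 of one), which gave the estimated depth of 21.8 M to 30.8 M reads, but too few were whole for a count model. The number of reads sets the precision of low genes such as Fabp1.

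Symbols and coordinates came from GENCODE M21 (14834 of 14845 identifiers matched). The 13495 genes that reached 1 in 5 or more libraries were tested as log2(value + 1) with limma 3.58.1 in R 4.3.3, with 4 group means, a mean-variance trend, robust moderation and two-sided Benjamini-Hochberg adjusted p-values over all of them. The fit was tested on simulated data. SDs and p-values rest on the spread of the libraries alone, part of which may be technical.

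The members, roles and gene lists were chosen with earlier results of these data known. Every member is accounted for; values per library are given for Ppara and for members called with a log2 difference of at least 1 in size, and up to 4 called genes of that size are named per list of other pathway genes, except 1 that is not reported here. Of the members 12 share at least 1% of their exon bases with another gene, among them Acadvl (42.9% with Dvl2, on the opposite strand) and Etfb, and their reads cannot be assigned with certainty. Promoters came from RefSeq (33 members matched). The alternatives were added constants of 0.5 and 5, no filter, median-of-ratios scaling, quantile normalization, only the groups compared, no trend or robust moderation, the replicate number as a block, leaving out 3 libraries, and leaving out each library.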

Additional observations from a re-analysis of the deposited data

Results flagged for a closer look

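In groups of 4 to 10 libraries, 6 of the 117 sets of member values tested held a library far from the others of its group, about the 5% that chance gives. Acsl1 was 126 in db/m replicate 3 of 26 weeks, against 92.7 to 94.9 in the other libraries of that group. Acadsb was 64.9 in db/db Unx replicate 01 of 35 weeks, against 80.6 to 86.9 in the others. Pex11a was 89.1 in db/m replicate 4 of 26 weeks (others 64.1 to 69.9), and its call at 26 weeks was lost without replicate 1, 2 or 3 of that group but not without this library. Acox3 was 370.2 in db/m replicate 5 of 35 weeks (others 268 to 302), and without it the call at 35 weeks was lost (adjusted p 0.1). Decr2 was 124 in db/db Unx replicate 05 of 35 weeks (others 98.5 to 99.9), and without it the 35-week call was lost (adjusted p 0.143). Ppara was 83.6 in db/m replicate 2 of 35 weeks (others 59.7 to 67.4).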

How the results depend on the processing

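Added constants, no filter, median-of-ratios scaling and fits without trend or robust moderation left each count of members called within 1.5 times its value and each of the 7 genes given per library on its side of the threshold. After quantile normalization the counts at 26 weeks were 20 higher and 5 lower, the medians were 0.19 (mitochondrial) and 0.092 (peroxisomal) at 26 weeks and 0.27 (mitochondrial) at 35 weeks, and the age counts were 2 higher in db/db Unx and 2 higher and 0 lower in db/m; the cause was not tested. Fitting only the groups compared gave 2 members lower with age in db/m, called Angptl4 at 26 weeks (0.60, adjusted p 0.0414) and not at 35 weeks (1.16, adjusted p 0.0616). Without db/db Unx replicates 03, 05 and 06 of 35 weeks, Pdk4 (1.06) and Angptl4 (0.65) were not called at 35 weeks, Angptl4 was called at 26 weeks (0.60, adjusted p 0.0487), and the age counts in db/db Unx were 0 and 0, with 2 libraries left. Leaving out 1 library at a time gave 1 to 2 members lower with age in db/m, the 2 being without db/m replicate 1 of 26 weeks, which added Eci1. It also ended the call of 3 members at 26 weeks and 2 at 35 weeks, all named above, and called 4 more at each age: Crat, Eci2, Hsd17b4 and Vnn1 at 26 weeks (adjusted p 0.0235 to 0.0495) and Abcd3, Acaa1b, Acadvl and Cpt1a at 35 weeks (0.0311 to 0.0489). Libraries of the same number did not deviate together (correlation -0.135 to 0.084 over 30 pairs, and -0.147 to 0.171 for other numbers), so the numbers are not a pairing; with the replicate block 12 members were higher and 7 lower at 26 weeks and 16 higher and 12 lower at 35 weeks, and 228 and 255 of all genes were called higher and lower with age in db/db Unx, against 697 and 829 without it. These background counts with age also moved when 1 library was left out: without db/db Unx replicate 03, 05 or 06 of 35 weeks they were 289 to 437 higher and 344 to 591 lower in db/db Unx, and in db/m as few as 192 higher and 386 lower (without db/m replicate 5 of 26 weeks), against 368 and 631.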

Other observations

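Within the 12 db/db Unx libraries of 26 weeks the members given per library did not all vary together. Of 21 pairs of the 7 genes, 2 had a correlation of log2 values with a Benjamini-Hochberg adjusted permutation p under 0.05 (100000 permutations, two-sided); these pairs were examined after the values were seen. Acot1 was low where Ppara was high, with Pearson r = -0.79 (permutation p = 0.00261, adjusted 0.0341) and Spearman rho = -0.80 (permutation p = 0.00255, adjusted 0.0535), and r = -0.86 without the 2 libraries farthest from the median of Acot1. Acot1 and Pdk4 were high together, with r = 0.78 (permutation p = 0.00325, adjusted 0.0341) and rho = 0.69 (permutation p = 0.0159, adjusted 0.111), but without the 2 farthest libraries r was 0.51 (permutation p = 0.136), so that relation rests on those libraries.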
